A study of Mus musculus with 2 samples.

Results

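The VEGF ligands, receptors and neuropilins were followed through single liver cells of healthy and carbon tetrachloride (CCl4)-injured mice. The 10 genes were taken by Ensembl identifier from the 30406 genes found in both deposited matrices, and RNA molecules of all 10 were counted in both libraries, each count being a unique molecular identifier (UMI). They were the ligands Vegfa, Vegfb, Vegfc, Vegfd and Pgf, the receptors Flt1 (VEGFR1), Kdr (VEGFR2) and Flt4 (VEGFR3), and the co-receptors Nrp1 and Nrp2. Both libraries came from Col1a2CreER:Rosa26tdTomato mice, in which a Cre under the Col1a2 promoter can mark collagen-producing cells with a red fluorescent protein. The healthy mice were uninjured. The injured mice had received repeated injections of CCl4 in corn oil, per the study's methods, and hepatocytes turn CCl4 into a toxic product. Each condition was 1 library, and the labels do not say how many animals it held or give their age. No p-value was therefore made, no difference has a replicate check, and every interval below is a 95% interval of counting error alone.

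VEGF ligands are secreted proteins that bind receptor tyrosine kinases on blood and lymphatic vessels. Vegfa acts mainly through Kdr, Flt1 binds Vegfa, Vegfb and Pgf and can hold Vegfa away from Kdr, and Vegfc and Vegfd act mainly through Flt4. Neuropilins bind VEGF ligands and class 3 semaphorins and assist the receptors. In the liver, VEGF signalling is known to maintain the fenestrated sinusoidal endothelium that lines the capillaries between the plates of hepatocytes.

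The promoters of Kdr and Flt1 are shown because endothelial-like cells of the healthy library held most of the RNA of both receptors in the values that follow. All 10 members matched the RefSeq promoter table (build GRCm38.p6). The windows are the 250 bases before the annotated start on chromosome 5, both on the minus strand, at chr5:75978456-75978705 for Kdr and chr5:147726012-147726261 for Flt1, written 5′ to 3′. Capitals mark GGAA or its reverse complement TTCC, the core letters bound by ETS factors, a family that includes endothelial regulators such as Erg.
Kdr: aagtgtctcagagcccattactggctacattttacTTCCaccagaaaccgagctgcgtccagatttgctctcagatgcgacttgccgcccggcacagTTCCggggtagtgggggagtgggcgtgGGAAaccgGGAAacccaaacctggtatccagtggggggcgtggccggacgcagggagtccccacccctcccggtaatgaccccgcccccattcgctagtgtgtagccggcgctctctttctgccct
Flt1: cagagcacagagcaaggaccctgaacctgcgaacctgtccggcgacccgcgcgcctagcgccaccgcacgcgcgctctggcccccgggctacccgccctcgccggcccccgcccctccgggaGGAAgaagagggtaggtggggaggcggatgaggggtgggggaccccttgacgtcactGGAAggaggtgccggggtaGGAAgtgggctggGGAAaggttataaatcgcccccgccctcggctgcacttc
Each window held 4 such matches. The same 4 letters were present in 93.4% of all 32851 promoter windows of this length, with a median of 3 matches, so their presence sets neither gene apart. The GC box GGGCGG, searched on both strands, was found 2 times before Kdr and 3 times before Flt1 and was present in 32.7% of all windows. The TATA letters TATAAA were found before Flt1 and not before Kdr, and 12.4% of all windows held them. These are matches of letters, not sites shown to be bound.

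The healthy library kept 5602 cells with a median of 6783.5 UMIs, and the CCl4 library kept 7292 cells with a median of 11886. Cells were grouped by clustering without the 10 members and without 40 further genes of the pathway, so that the levels of the members by class do not follow from the clustering. Endothelial-like cells were 63.3% of the healthy and 8.85% of the CCl4 library (3546 and 645 cells), cholangiocyte-like cells 1432 and 33, mesothelial-like cells 231 and 875, hepatocyte-like cells 320 and 105, and mesenchymal-like cells 26 and 4734. Neutrophil-like cells, T and NK cell-like cells and macrophage and monocyte-like cells reached 50 cells in the CCl4 library alone. These shares follow the digestion, the density gradient and the depletion of CD45-positive cells, and they are not the makeup of the liver. A class was described in a library from 50 cells. The libraries shared 8 barcodes among kept cells. Levels are CPM, the UMIs of a gene per 1000000 UMIs of the summed cells. They come from the 3′ ends of transcripts, so they are compared between cells and not between genes, and the soluble and membrane forms of Flt1 were not told apart.

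**Figure D1:**
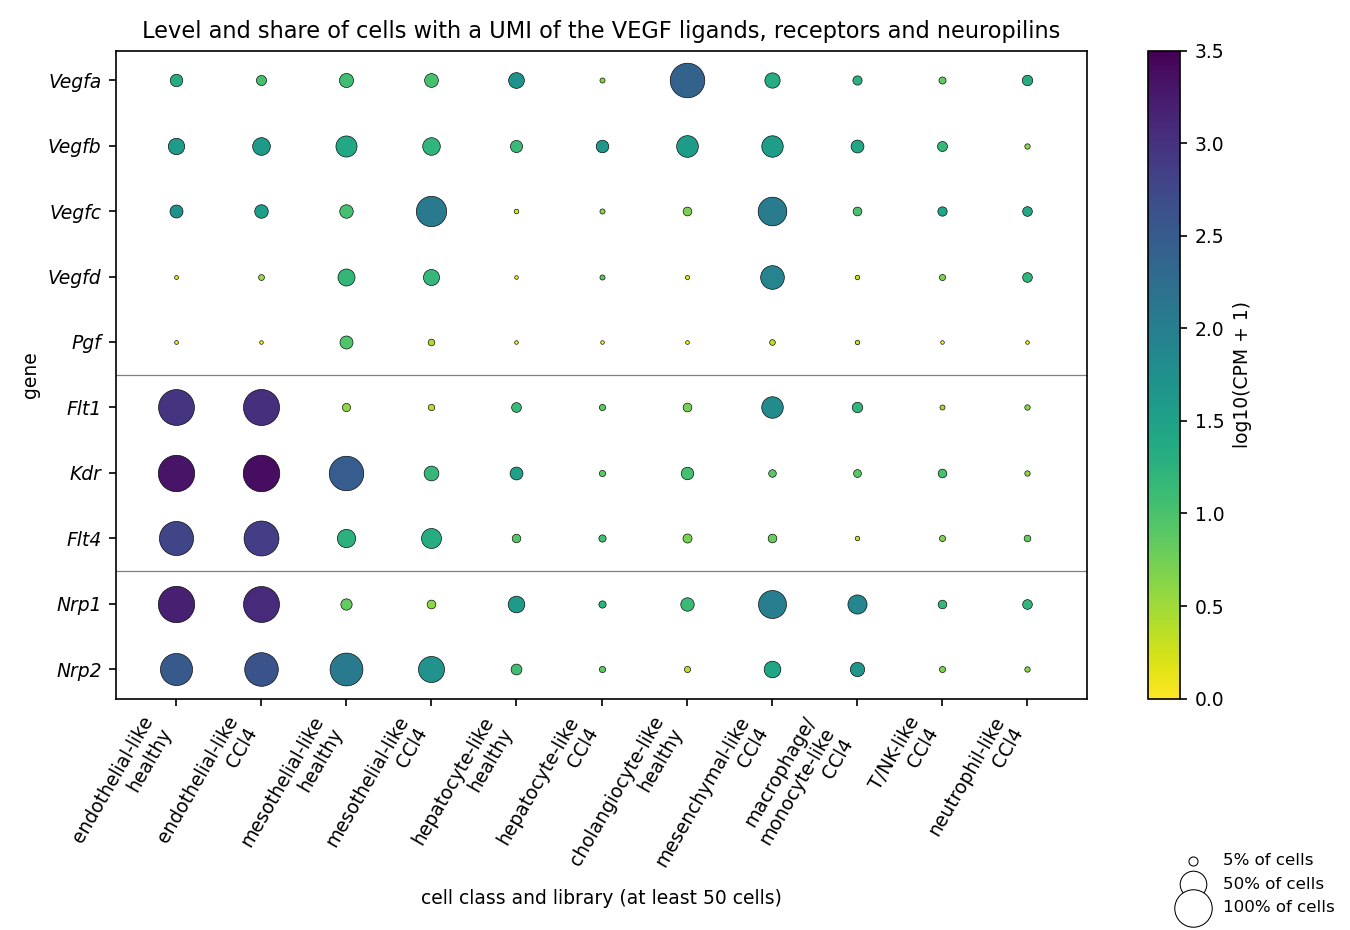
Level and detection of the 10 members in each cell class and library with at least 50 cells. Colour gives log10(CPM + 1), point size the share of cells with a UMI of the gene, and grey lines separate ligands, receptors and neuropilins. The receptors and neuropilins were highest in endothelial-like cells of both libraries, Vegfa in healthy cholangiocyte-like cells, and Kdr stood at 304 CPM in healthy mesothelial-like cells.

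Vegfa, the main angiogenic ligand, was carried by the bile duct cells of the healthy library. Healthy cholangiocyte-like cells held 4558 of its 5239 UMIs (87.0%, interval 86.1 to 87.9), beside 39.7% of the UMIs of all genes. Their Vegfa level was 249 CPM (242 to 257), and 85.1% of these cells had a UMI of it. Among classes of at least 50 cells, healthy hepatocyte-like cells stood next at 52.5 CPM (44.3 to 61.8). Healthy endothelial-like cells were at 21.5 CPM (19.5 to 23.7) and healthy mesothelial-like cells at 10.9 CPM (7.88 to 14.8). No interval of these 4 classes overlapped another. The 26 healthy mesenchymal-like cells, fewer than that minimum, had 26 Vegfa UMIs at 92.4 CPM (60.3 to 135). In the CCl4 library the 33 cholangiocyte-like cells, fewer than the minimum of 50 set for a class, had 52 Vegfa UMIs at 211 CPM (157 to 276). Mesenchymal-like cells of that library held 81.5% of the 1607 Vegfa UMIs, beside 70.5% of the UMIs of all genes, and stood at 21.3 CPM (20.1 to 22.4). The level there was uneven. It was 51.3 CPM (47.5 to 55.3) in the mesenchymal-like cluster led by Cxcl13 and Serpinb2, which also had 3 mesothelial markers. In the one led by Ednra it was 4.57 CPM (3.502 to 5.86). Hepatocyte-like cells held 145 healthy Vegfa UMIs and 1 from the CCl4 library. With a total of 298806 UMIs in the 105 CCl4 cells, the ratio of their levels, CCl4 over healthy, was 0.0637 with an interval of 0.00160 to 0.361. That ratio sets unlike cells side by side, since 48 healthy cells lay in a deep cluster with 0 CCl4 cells, while the other 272 healthy cells shared a cluster with all 105 CCl4 cells. Within the shared cluster Vegfa was 21.2 CPM (12.7 to 33.0) in the healthy and 3.35 CPM (0.0847 to 18.6) in the CCl4 library, and the intervals overlapped.

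Vegfb, a ligand of Flt1 and Nrp1, had near equal levels in several classes. It was 38.7 CPM in healthy and 39.2 CPM in CCl4 endothelial-like cells, 36.7 CPM in healthy cholangiocyte-like cells and 36.3 CPM in CCl4 mesenchymal-like cells, and the intervals of these 4 levels overlapped. It was lower in mesothelial-like cells, at 24.5 CPM (19.8 to 29.96) in the healthy and 15.3 CPM (13.4 to 17.3) in the CCl4 library. Hepatocyte-like cells had 34 Vegfb UMIs (12.3 CPM) in the healthy and 14 (46.9 CPM) in the CCl4 library, a ratio of 3.81 (1.89 to 7.28). Within the shared hepatocyte-like cluster the levels were 20.04 CPM (11.9 to 31.7) and 46.9 CPM (25.6 to 78.6), and their intervals overlapped.

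Vegfc, the lymphatic ligand that signals through Flt4, had different carriers in the 2 libraries. In the healthy library endothelial-like cells held 1011 of its 1129 UMIs (89.5%, 87.6 to 91.3). That share was 11.3% (9.55 to 13.3) with each library clustered on its own, where 1757 rather than 3546 healthy cells were named endothelial-like. Within them the large-vessel cells, which carry Vwf and Gja5, stood at 262 CPM (244 to 281) and the sinusoidal cells at 12.0 CPM (10.4 to 13.8). The large-vessel cells were uneven too, since the sub-cluster led by Mgp and Gja5, an artery gap junction gene, stood at 324 CPM (302 to 347) and the one led by Bmp4 and Cyp1b1 at 9.85 CPM (3.61 to 21.4). In the CCl4 library mesenchymal-like cells held 6992 of 9208 UMIs (75.9%, 75.05 to 76.8) at 114 CPM (111 to 116), and mesothelial-like cells held 20.1% (19.3 to 20.9) at 115 CPM (110 to 121). These shares were near those of the UMIs of all genes, 70.5% in mesenchymal-like and 18.4% in mesothelial-like cells of that library. The 27 CCl4 large-vessel cells, which also carried Gja5, were at 376 CPM (290 to 479), which overlapped the healthy Mgp and Gja5 sub-cluster. CCl4 T and NK cell-like cells, which share the free RNA of that library, stood at 25.8 CPM (13.7 to 44.1).

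Vegfd, the other ligand of Flt4, was nearly absent from the healthy library with 70 UMIs in 5602 cells, of which mesothelial-like cells held 54. The CCl4 library held 5416 UMIs, and 5112 of them (94.4%, 93.7 to 94.99) lay in mesenchymal-like cells at 83.0 CPM (80.8 to 85.4), with a UMI in 39.4% of cells. After each cell was thinned to 2000 UMIs, 13.1% of the mesenchymal-like cells kept a Vegfd UMI. Vegfd in mesothelial-like cells was 14.1 CPM (10.6 to 18.4) in the healthy and 13.7 CPM (12.0 to 15.7) in the CCl4 library, a ratio of 0.976 (0.722 to 1.34). The 26 healthy mesenchymal-like cells, fewer than the minimum of 50 set for a class, had 5 UMIs each of Vegfc and Vegfd. Both stood at 17.8 CPM (5.77 to 41.5), below the 114 and 83.0 CPM of CCl4 mesenchymal-like cells. The parts of level and of the larger number of mesenchymal-like cells in the larger CCl4 totals were not tested.

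Pgf, placental growth factor, was rare. The healthy library held 49 UMIs and the CCl4 library 118. Among classes of at least 50 cells, the highest level was 8.33 CPM (5.70 to 11.8) in healthy mesothelial-like cells. CCl4 mesothelial-like cells stood at 1.87 CPM (1.26 to 2.67). The 26 healthy mesenchymal-like cells, fewer than that minimum, had 11 Pgf UMIs at 39.1 CPM (19.5 to 69.9). CCl4 mesenchymal-like cells were lower, at 1.33 CPM (1.06 to 1.65). In CCl4 endothelial-like cells Pgf had 0 UMIs in 645 cells, which allows a share of cells with a UMI of up to 0.465% and sets no limit on cells that express the gene. Healthy endothelial-like cells had 4 Pgf UMIs.

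**Figure D2:**
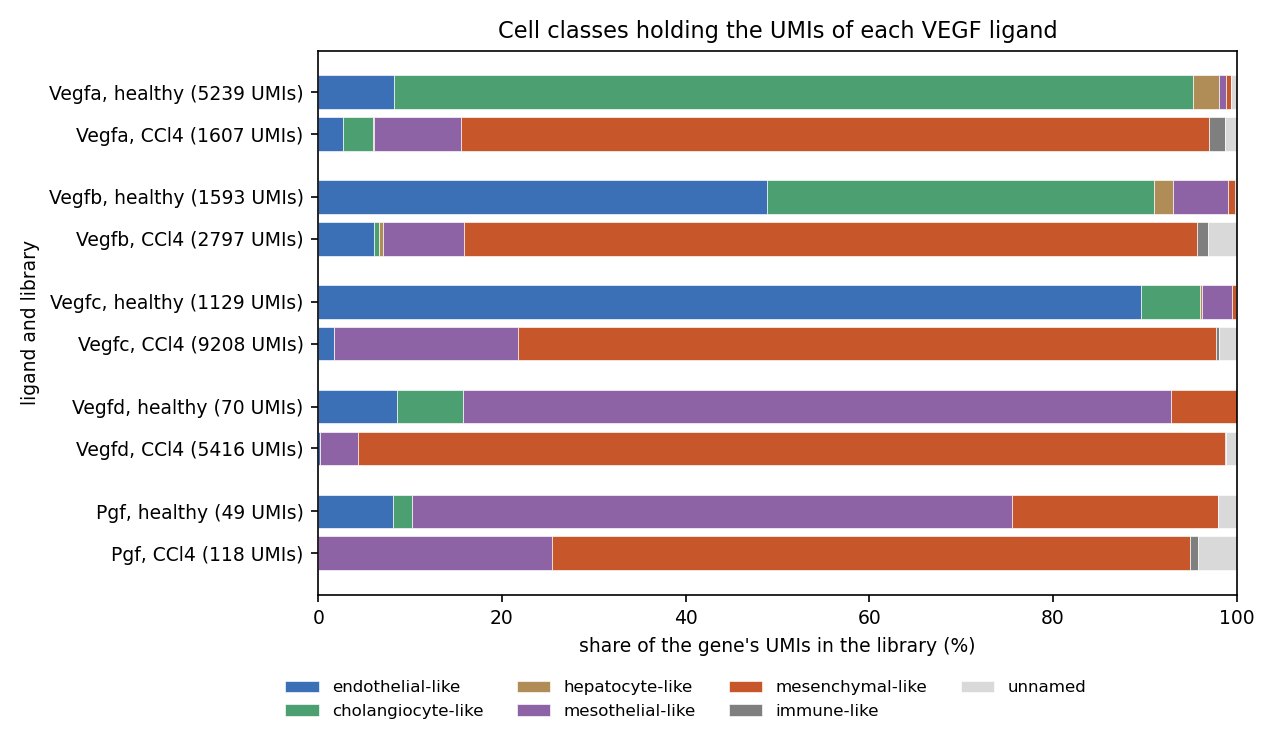
Share of the UMIs of each ligand held by each cell class, with 1 bar for each library and the number of UMIs beside it. Neutrophil-like cells are drawn together with T and NK cell-like and with macrophage and monocyte-like cells as immune-like. The Vegfa bar was 87.0% cholangiocyte-like in the healthy and 81.5% mesenchymal-like in the CCl4 library, and the Vegfc bar 89.5% endothelial-like (11.3% with each library clustered on its own) and 75.9% mesenchymal-like. Mesenchymal-like cells held 70.5% of the UMIs of all genes in the CCl4 library.

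The receptors and neuropilins were carried by endothelial-like cells in the healthy library, which held 99.1% of the UMIs of Flt1, 96.5% of Kdr, 98.4% of Flt4, 98.6% of Nrp1 and 92.8% of Nrp2. In the CCl4 library endothelial-like cells held 81.3% of Kdr and 73.1% of Flt4, and 49.1% of Flt1, 40.5% of Nrp1 and 38.5% of Nrp2. Mesenchymal-like cells held most of the rest of these 3, with 42.7% of Flt1, 50.2% of Nrp1 and 34.4% of Nrp2, each below their 70.5% of the UMIs of all genes. Endothelial-like cells held 43.7% of the UMIs of all genes in the healthy and 4.96% in the CCl4 library. An unnamed CCl4 cluster of 90 cells, with endothelial and mesenchymal markers together, held 1714 of the 12941 Kdr UMIs.

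In endothelial-like cells the receptors and neuropilins were within 2-fold between the libraries, and Nrp1 was the 1 of these 5 with a lower level in the CCl4 library. Kdr, the main signalling receptor of Vegfa, was 2054 CPM (2034 to 2074) in the healthy and 2428 CPM (2382 to 2475) in the CCl4 library, a ratio of CCl4 over healthy of 1.18 (1.16 to 1.21). Flt1 was 899 CPM (886 to 913) and 1049 CPM (1019 to 1080), a ratio of 1.17 (1.13 to 1.21). Flt4 was 603 CPM (592 to 613) and 722 CPM (697 to 747), a ratio of 1.20 (1.15 to 1.25). Nrp2, the neuropilin that partners Flt4, was 345 CPM (337 to 353) and 407 CPM (388 to 426), a ratio of 1.18 (1.12 to 1.24). Nrp1, the neuropilin that partners Kdr, was 1567 CPM (1550 to 1585) and 1210 CPM (1178 to 1244), a ratio of 0.772 (0.750 to 0.795). Thus 4 of the 5 were higher and 1 was lower in the CCl4 library, each by less than 2-fold and with an interval that did not reach 1. Of those 4, the intervals of Flt1 (1.02, 0.984 to 1.05) and Flt4 (1.04, 0.9998 to 1.08) held 1 when cells were gated by endothelial markers, and those of Flt4 (1.01, 0.968 to 1.06) and Nrp2 (1.05, 0.988 to 1.11) when each library was clustered on its own.

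Most genes were also within 2-fold between the libraries, so this does not set the 5 receptors and neuropilins apart. Of 8506 genes with a mean of at least 10 CPM in endothelial-like cells, 3.84% were at least 2-fold higher and 11.1% at least 2-fold lower in the CCl4 library (14.9% in either direction), and the median ratio was 0.835. Of the 8 members that reached 10 CPM, 0 were at least 2-fold higher and 1 was at least 2-fold lower, namely Vegfa (21.5 CPM and 10.2 CPM, ratio 0.472, 0.338 to 0.644), and the median ratio of the 8 was 1.09. With each library clustered on its own Vegfa was at 0.710 (0.493 to 1.01), under 2-fold and with an interval that held 1. The other 2 members were below 10 CPM, Vegfd with 6 and 10 UMIs (ratio 7.74, 2.55 to 25.9) and Pgf with 4 and 0 UMIs. Vegfd stood at 2.31 CPM in the CCl4 endothelial-like cells. In that library it was 3.96 CPM in T and NK cell-like, 6.69 in hepatocyte-like and 15.0 CPM in neutrophil-like cells. In macrophage and monocyte-like cells it was 1.02 CPM. The part of free RNA in the endothelial Vegfd ratio was not tested. Against the median gene, Flt1 was 1.40, Kdr 1.42, Flt4 1.43, Nrp2 1.41 and Nrp1 0.925 times as high. TMM scaling, which moves every endothelial ratio up by 0.21 on the log2 scale, gave 1.36 for Kdr and 0.891 for Nrp1, and no direction among the 5 changed.

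The share of endothelial-like cells with a UMI was high for all 5 genes in both libraries. Kdr was detected in 94.4% (93.6 to 95.2) of the healthy and 95.2% (93.2 to 96.7) of the CCl4 cells, and after thinning to 2000 UMIs in 92.4% and 94.96%. Nrp1 was detected in 94.3% and 92.2%, and after thinning in 91.9% and 85.5%. Flt1 after thinning was 81.4% and 84.7%, Flt4 66.4% and 71.0%, and Nrp2 48.3% and 54.3%. Thinning left out 574 healthy and 76 CCl4 cells. As a measure of free RNA, Kdr had a UMI in 10.3% of healthy cholangiocyte-like cells (9.79 CPM) and in 4.46% of CCl4 T and NK cell-like cells (9.91 CPM), which had median depths of 11190 and 4122.5 UMIs, beside 5899.5 and 6537 in the healthy and CCl4 endothelial-like cells.

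Other genes in these endothelial-like cells differed between the libraries. The 16 endothelial markers were all detected in both, and their summed level was 11907 CPM in the healthy and 6704 CPM in the CCl4 cells, and the 10 sinusoidal markers summed to 17188 and 9795 CPM. The 14 mesenchymal markers, all detected, summed to 2234 and 5323 CPM, with Col1a1 at 0.249 and 132 CPM, and the 18 hepatocyte markers to 1869 and 125 CPM. Different clusters held most of the class, those led by Cd300lg and Clec4g in the healthy library and the one led by Esm1 and Pcdh17 in the CCl4 library. The part of these differences in the receptor ratios was not tested.

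**Figure D3:**
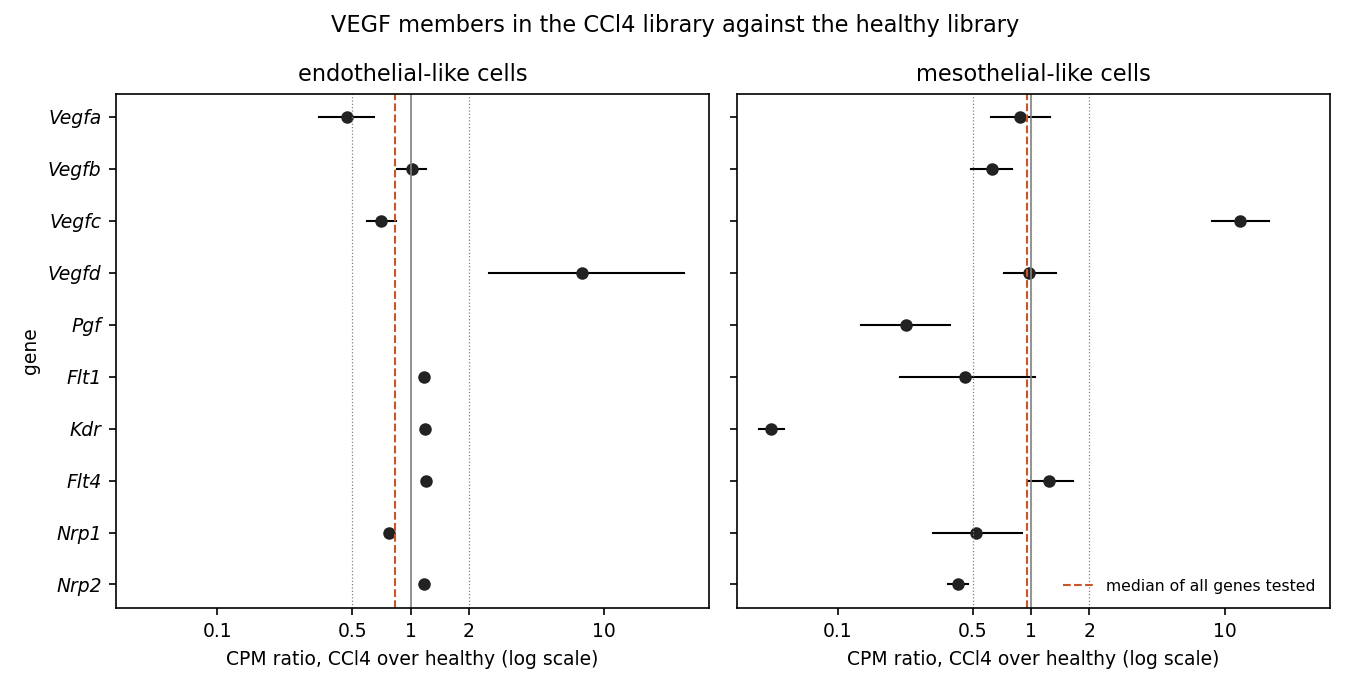
Ratio of the level in the CCl4 over that in the healthy library for each member, in endothelial-like cells (left) and mesothelial-like cells (right), on a log axis. Points are ratios of summed UMIs, bars their 95% counting intervals, the dashed line is the median ratio of all genes tested and dotted lines mark 2-fold. In endothelial-like cells the 5 receptors and neuropilins lay between 0.772 and 1.20, and in mesothelial-like cells Kdr lay at 0.0454 and Vegfc at 12.0. A gene with 0 UMIs in either library has no point.

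Kdr, Flt4, Nrp1 and Nrp2 differed more between kinds of vessel than between the libraries. Endothelial-like cells were divided again within each library into sinusoidal, large-vessel and lymphatic kinds. Among the sinusoidal cells, 139 healthy and 91 CCl4 cells were high in Rspo3 and Wnt9b, Wnt pathway ligands known from endothelium near the central vein, and are given apart. Kdr was 2380 CPM (2356 to 2404) in the other sinusoidal cells, 1806 (1725 to 1891) in the Rspo3- and Wnt9b-high cells and 471 (447 to 496) in the large-vessel cells of the healthy library, and 2743 (2687 to 2799), 1484 (1401 to 1570) and 751 (627 to 892) in the CCl4 library. The order was the same in both libraries, with no overlap between neighbours. Flt4 had the same order, with 699 CPM (686 to 712), 448 (408 to 491) and 138 (125 to 152) in the healthy and 851 (820 to 883), 322 (284 to 364) and 92.4 (52.8 to 150) in the CCl4 library. Nrp1 had it as well, with 1750, 1198 and 772 CPM in the healthy and 1323, 912 and 422 CPM in the CCl4 library. Nrp2 was 383, 314 and 139 CPM in the healthy and 419, 401 and 191 CPM in the CCl4 library, where the intervals of both sinusoidal groups overlapped. Flt1 varied least, from 813 to 955 CPM over these kinds in the healthy and from 901 to 1078 CPM in the CCl4 library.

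Within the kinds the ratios of CCl4 over healthy were not all of 1 sign. In all sinusoidal cells, 3150 healthy and 618 CCl4 cells, they were 1.06 (1.04 to 1.09) for Kdr, 1.15 (1.11 to 1.19) for Flt1, 1.09 (1.05 to 1.14) for Flt4, 1.10 (1.04 to 1.16) for Nrp2 and 0.724 (0.703 to 0.746) for Nrp1. Of 8474 genes tested there 4.27% were at least 2-fold higher and 11.6% at least 2-fold lower, and of the 8 members tested 0 were higher and 1, Vegfa, was lower (0.462, 0.323 to 0.645). In the Rspo3- and Wnt9b-high cells Kdr was 0.821 (0.763 to 0.884) and Flt4 0.719 (0.615 to 0.839), while in the other sinusoidal cells Kdr was 1.15 (1.13 to 1.18) and Flt4 1.22 (1.17 to 1.27). The Rspo3- and Wnt9b-high groups differed in their markers, with 9 sinusoidal and 4 large-vessel markers in the healthy and 7 of each in the CCl4 group. The CCl4 group also had Entpd1 and Cyp1b1 among its leading genes, as did the healthy large-vessel sub-cluster led by Bmp4 and Cyp1b1. The part of this in the Kdr and Flt4 ratios, and the difference between the kinds, were not tested. In the large-vessel cells Kdr was 1.59 (1.32 to 1.91) and Nrp1 0.546 (0.427 to 0.689), with 27 cells on the CCl4 side. The healthy side joined 309 cells led by Mgp and Gja5 and 78 led by Bmp4 and Cyp1b1, while the CCl4 cells were led by Col8a1 and Gja5. The part of this in the large-vessel ratios was not tested. Nrp1 was lower in the CCl4 library in each of these kinds, and its ratio in the Rspo3- and Wnt9b-high cells was 0.761 (0.694 to 0.835). Vegfc was at 0.707 (0.593 to 0.838) over all endothelial-like cells, of which large-vessel cells were 387 of 3546 in the healthy and 27 of 645 in the CCl4 library. In the sinusoidal cells it was 12.0 CPM and 21.4 CPM (17.2 to 26.3), a ratio of 1.78 (1.37 to 2.29). Other CCl4 classes stood at 25.8 CPM (T and NK cell-like), 24.1 CPM (neutrophil-like), 9.14 CPM (4.18 to 17.4, macrophage and monocyte-like) and 3.35 CPM (hepatocyte-like). The part of free RNA in the sinusoidal Vegfc ratio was not tested.

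A lymphatic-like sub-cluster of 9 healthy cells, with Prox1 at 443 CPM and the lymphatic gene Mmrn1 at 3363 CPM, had a receptor set of its own. Flt4 was 1212 CPM (978 to 1485) and Nrp2 1082 CPM (862 to 1341) there, both above the other kinds of endothelial-like cells in either library, and Flt1 was 130 CPM (62.5 to 240) and Nrp1 299.8 CPM (190.0 to 449.8), below the other endothelial kinds of that library. All 9 cells had UMIs of Kdr, Flt4 and Nrp2. The 10 Flt1 UMIs lay in 2 cells (22.2%) and the 23 Nrp1 UMIs in 1 cell (11.1%). The counting intervals of Flt1 and Nrp1 therefore do not cover the spread between these cells. No lymphatic-like sub-cluster was found among the 645 CCl4 cells, where Mmrn1 had 0 UMIs. A named sub-cluster needed 5 cells, and the healthy one was 9 of 3546 endothelial-like cells, so this absence does not tell the libraries apart.

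**Figure D4:**
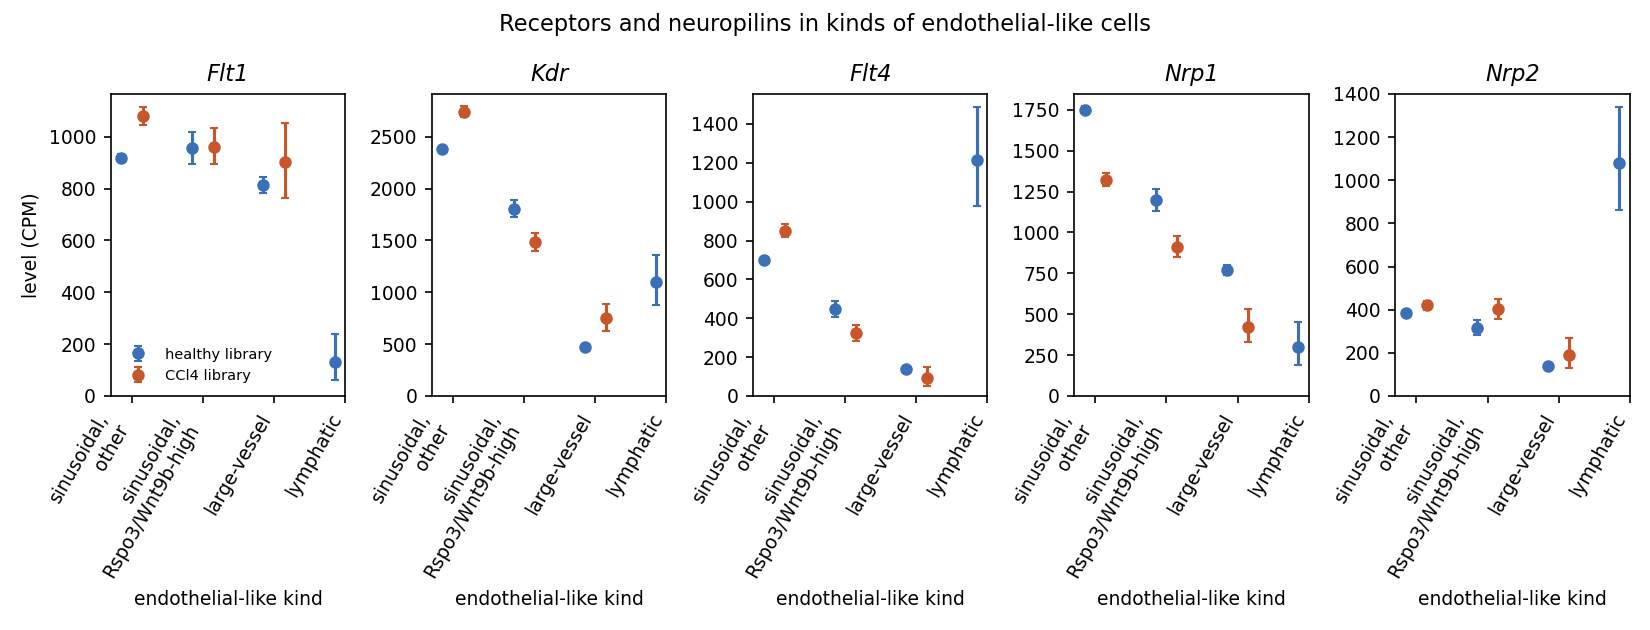
Level in CPM of each receptor and neuropilin in 4 kinds of endothelial-like cells, with the healthy library in blue and the CCl4 library in orange. Bars are exact Poisson 95% intervals of the counts. Kdr, Flt4, Nrp1 and Nrp2 stepped down from sinusoidal to large-vessel cells in both libraries, and Flt4 and Nrp2 were highest in the 9 lymphatic-like cells.

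Mesothelial-like cells, the lining of the liver surface, differed more between the libraries in Kdr than in the other members. Kdr was 304 CPM (287 to 322) in 231 healthy cells and 13.8 CPM (12.0 to 15.7) in 875 CCl4 cells, which is 22.0-fold lower (19.1 to 25.6). A Kdr UMI was found in 84.8% of the healthy and 14.7% of the CCl4 cells, and after thinning in 40.6% and 2.31%. In the healthy mesothelial-like cells Flt1 was at 2.86 CPM, Pecam1 at 4.69 CPM, Cdh5 at 3.13 CPM and Stab2 at 4.95 CPM. The endothelial markers summed to 243 CPM there, the sinusoidal to 80.2, the portal sinusoidal to 961 and the large-vessel markers to 834 CPM. In healthy endothelial-like cells these sums were 11907, 17188, 1942 and 2218 CPM. The counts were 1167 UMIs of Kdr beside 11 of Flt1, against 41314 beside 18092 in healthy endothelial-like cells. The part of free RNA in the mesothelial Kdr level was not tested. Nrp2 was 117 CPM (107 to 129) and 49.3 CPM (45.9 to 52.8), 2.38-fold lower (2.12 to 2.68), and Flt4 was 17.2 CPM (13.3 to 21.9) and 21.3 CPM (19.1 to 23.7), a ratio of 1.24 (0.948 to 1.64). Nrp1 was low in both, at 5.99 and 3.12 CPM.

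The ligand Vegfc moved the other way in the same cells. It was 9.64 CPM (6.78 to 13.3) in the healthy and 115 CPM (110 to 121) in the CCl4 mesothelial-like cells, a ratio of 12.0 (8.65 to 17.1). The share of cells with a UMI was 12.1% and 65.3%, and after thinning 1.65% and 18.5%. Vegfa (0.872, 0.617 to 1.26) was not separated from 1, and Vegfb had a ratio of 0.624 (0.490 to 0.8005). Of 8453 genes tested in mesothelial-like cells, 7.16% were at least 2-fold higher and 11.2% at least 2-fold lower in the CCl4 library, with a median ratio of 0.954, and of the 7 members tested 1 was higher and 2 were lower. The healthy and CCl4 cells lay in different clusters, led by Myl7 and Prph and by Saa3 and Lgals2. All 12 mesothelial markers were detected in both, at a summed level of 12825 and 5733 CPM, and median depths were 18546 and 17542 UMIs. The part of these differences in the Kdr and Vegfc ratios was not tested.

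Mesenchymal-like cells of the CCl4 library, named by collagen and other mesenchymal markers, carried Flt1 and Nrp1 at levels that differed between clusters. The cluster led by Cxcl13 and Serpinb2 had 10 mesenchymal and 3 mesothelial markers, and the other clusters 14 and at most 2. With each library clustered on its own, CCl4 mesenchymal-like cells were 3927 rather than 4734 and mesothelial-like cells 1105 rather than 875. Whether the Cxcl13 and Serpinb2 cluster is mesenchymal or mesothelial was not tested. Flt1 was 128 CPM (122 to 133) with a UMI in 68.3% of cells in the cluster led by Mfap4 and Thbs4, which are matrix genes of fibroblasts, and 77.8 CPM (73.1 to 82.7) in the one led by Cxcl13 and Serpinb2. It was 9.06 CPM (7.53 to 10.8) with a UMI in 8.62% of cells in the cluster led by Ednra, where the stellate cell gene Lrat was among the 10 leading genes. CCl4 mesothelial-like cells stood at 1.31 CPM of Flt1, and CCl4 T and NK cell-like cells at 1.98 CPM. Nrp1 was 158 CPM (151 to 165) in the cluster led by Ednra, 128 CPM (123 to 133) in the one led by Mfap4 and Thbs4 and 9.80 CPM (8.19 to 11.6) in the one led by Cxcl13 and Serpinb2. Nrp2 was highest in the cluster led by Mfap4 and Thbs4 at 63.0 CPM (59.4 to 66.9) and stood between 4.86 and 30.6 CPM in the other 5 clusters.

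The Flt4 ligands were more evenly spread over these cells than the receptors. Vegfc ranged from 80.7 to 132 CPM over the 6 clusters. Vegfd was highest in the cluster led by Tcf21 and Tagln at 138 CPM (131 to 146) and lowest in the one led by Cxcl13 and Serpinb2 at 28.4 CPM (25.6 to 31.4). Kdr was at 20.2 CPM or less and Flt4 at 10.5 CPM or less in 5 of the 6 clusters. The other, a cluster of 309 cells led by the cell division genes Prc1 and Cenpf, had 41.6 CPM of Kdr in 6.80% of its cells and 21.0 CPM of Flt4. In macrophage and monocyte-like CCl4 cells Nrp1 was 76.2 CPM (59.9 to 95.5) and Nrp2 45.7 CPM (33.3 to 61.2), with Kdr at 7.11 CPM.

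**Figure D5:**
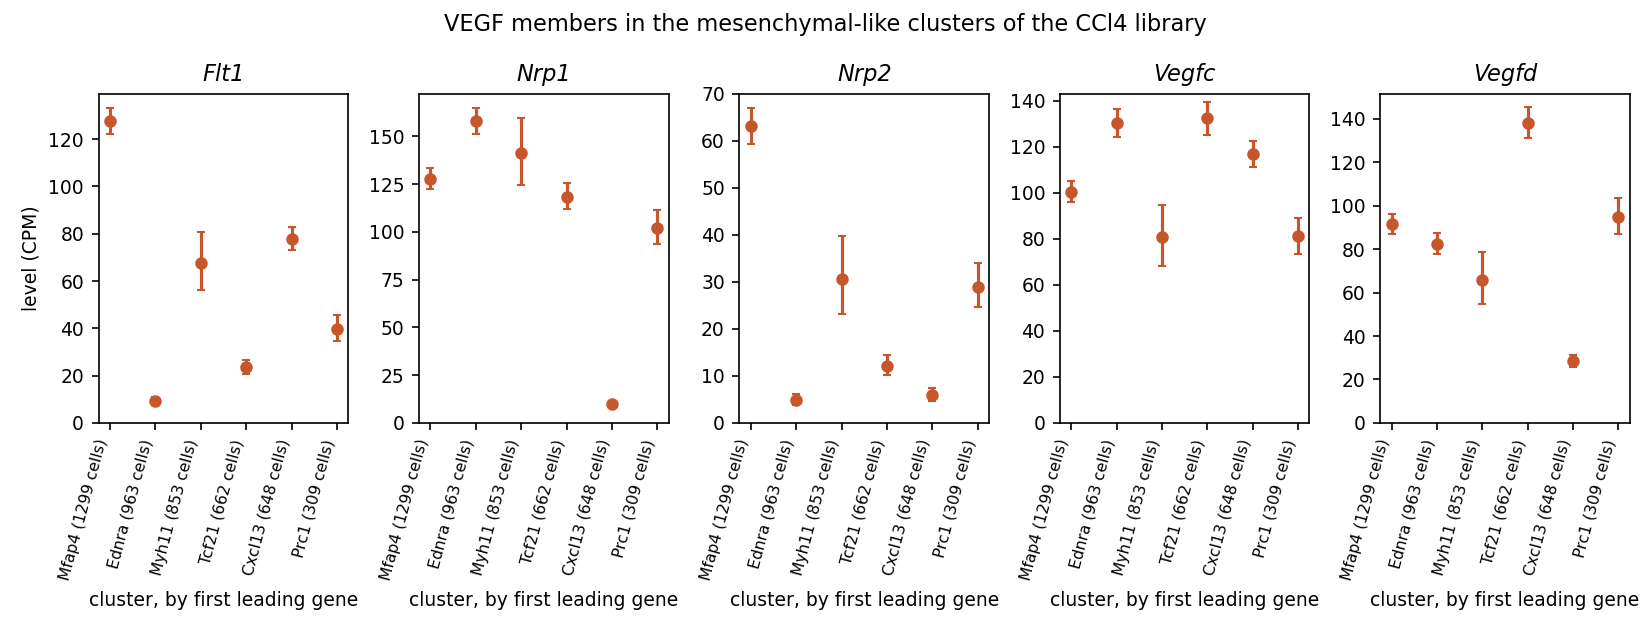
Level in CPM of 5 members in the 6 mesenchymal-like clusters of the CCl4 library, each named by its first leading gene, with exact Poisson 95% intervals. Flt1 was highest in the cluster led by Mfap4 and Thbs4 (128 CPM) and lowest in the one led by Ednra (9.06 CPM). Nrp1 was lowest in the one led by Cxcl13 and Serpinb2 (9.80 CPM), which also had 3 mesothelial markers.

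Around the members, 40 further genes of the pathway were counted in endothelial-like cells. At a mean of at least 10 CPM, 29 were measured, of which 7 (24.1%) were at least 2-fold higher and 0 at least 2-fold lower in the CCl4 library, beside 3.84% and 11.1% of all genes, and their median ratio was 1.18 beside 0.835. The minimum bears on this count, since Apln and Thbs1 reached it through the CCl4 library alone, while Plg, a gene of hepatocytes with 13.0 CPM in the healthy and 0.231 CPM in the CCl4 cells, had a mean below it and was left out. Of the genes known to rise with VEGF signalling, 3 of 6 measured were higher. Apln, the ligand of the apelin receptor and a gene of vessel sprouts, went from 0.447 to 22.6 CPM (ratio 50.5, 25.6 to 114) with 9 UMIs on the healthy side, Esm1, a proteoglycan of tip cells, from 10.99 to 226 CPM (20.5, 17.7 to 23.9), and Nr4a1, an early response transcription factor, from 14.1 to 46.8 CPM (3.33, 2.77 to 4.001). The other 3 were within 2-fold, namely the Notch ligand Dll4 at 0.688 (0.621 to 0.761), Rcan1 at 1.15 (1.02 to 1.29) and Angpt2 at 1.13 (0.873 to 1.45). Esm1 was detected in 33.2% of the CCl4 sinusoidal cells outside the Rspo3- and Wnt9b-high group and in 2.20% of that group.

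Of genes that process or release ligands, 1 of 3 measured was higher, the angiogenesis inhibitor Thbs1 (5.77 and 15.9 CPM, 2.76, 2.02 to 3.75). Its ratio within sinusoidal cells was 70.3 (26.3 to 265) on 4 healthy and 69 CCl4 UMIs. Mesenchymal markers summed to 2234 CPM in the healthy and 5323 CPM in the CCl4 endothelial-like cells. The part of free RNA in the Thbs1 ratios was not tested. Among receptor partners and signalling genes 1 of 9 was higher, the adaptor Grb10 (2.31, 2.05 to 2.60), and among semaphorins and plexins 2 of 5 were, Sema3d (2.18) and Sema3f (2.11), both named after their values were seen. Of the 6 measured regulators of ligand transcription 0 passed 2-fold, with the hypoxia factor Hif1a at 1.75 (1.59 to 1.93), Epas1 at 0.918 (0.874 to 0.964) and Arnt at 0.624 (0.528 to 0.734).

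The genes most like each member were found over the 11 class and library populations of at least 50 cells, by the correlation of log2(CPM + 1) among 7184 genes. These are descriptions over few points, which share 2 libraries, their free RNA and their depths. Flt1 was nearest to Nrp1 (r = 0.979), Eng (0.978) and Coro2b (0.977), and Nrp1 to Flt1, Eng (0.967) and Hecw2 (0.945). Flt4 was nearest to Shank3 (0.940), Nova2 (0.937) and the endothelial guidance receptor Robo4 (0.936), Kdr to Id4 (0.952), Cdh4 (0.951) and Plpp3 (0.935), and Nrp2 to Sh3tc1 (0.953), Ap2a2 (0.950) and Mest (0.923). Vegfa was nearest to Slc45a3 (0.943), Fgfr4 (0.906) and Pkhd1, a bile duct gene (0.905), Vegfd to Ncam1 (0.944), the smooth muscle actin Acta2 (0.943) and Tbx20 (0.913), Vegfc to Cebpd (0.904), Fscn1 (0.902) and Ppic (0.896), and Vegfb to Psmc3 (0.926), Cops8 (0.923) and Eif2a (0.919).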

How the data were processed

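Liver cells were profiled with the 10x Genomics 3′ protocol in 1 healthy and 1 CCl4 library. Per the labels livers were perfused, digested and purified on a Nycodenz gradient, and the study's methods add depletion of CD45-positive cells. The authors deposited whole-number UMI counts per gene and barcode, without normalization, written per the file headers by Cell Ranger 3.1.0 (healthy, 31053 genes, 51122846 UMIs in 6297 barcodes) and 6.0.1 (CCl4, 32285 genes, 97611831 UMIs in 8460 barcodes). The study's methods instead describe trimming with fastp, counting with featureCounts 1.6.2 and the human build GRCh38, and the submitters' processing notes list GRCh38 and mm10. The identifiers are mouse, so the build of the matrices is unsure and no coordinate of the files was used.

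Genes on both lists (30406) were kept. Cells needed 500 UMIs, 200 genes and at most 30% mitochondrial UMIs, which left out 418 healthy and 659 CCl4 cells. The highest Scrublet scores were removed at 0.8% per 1000 cells (277 and 487 cells). Then 22 CCl4 cells with over 5% globin UMIs were set aside. Both libraries were clustered together with scanpy 1.11.5 (python 3.11.15, igraph 0.11.9, scikit-learn 1.9.0): 2000 variable genes without the members, the 40 pathway genes, and mitochondrial, ribosomal and sex-linked genes, 10 principal components, 20 neighbours, Leiden resolution 1, seed 1. Of 24 clusters 20 were named. A marker counted when it was found in 10% of a cluster's cells and its CPM was at least 2 times the median over clusters and at least 0.2 of the highest cluster. A name needed 3 markers, and a cluster stayed unnamed when a second class had at least 3 markers and 0.5 as many, when markers of another class were more frequent among its 10 leading genes, or when its cells had under 1 in 3 of the median depth of their library and none of its markers led. Endothelial-like cells were clustered again in each library at resolution 0.5, and 2 sub-clusters (17 healthy and 5 CCl4 cells) with under 0.5 of the endothelial markers were left out of the kinds. The globin limit, these naming rules and the sinusoidal group with at least 5 of 6 central markers were set after seeing the data, and names can differ from those of the study.

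UMIs were summed per population. CPM has exact Poisson, shares exact binomial (Clopper-Pearson) and ratios exact conditional binomial 95% intervals, all for counting error only, and 0 counts were read as up to 3 counts. Called means at least 2-fold at a mean of at least 10 CPM. This rule was tested on data simulated with counting error alone. The simulation held no spread between animals and no free RNA, so it does not bear on these. Shares were also computed for cells thinned to 2000 UMIs, as the share expected over all thinnings. With 1 library a group no test was made. Named genes were the members, up to 5 called pathway genes in each direction by size, and the 3 genes of highest Pearson r with each member of at least 1000 UMIs, among genes of at least 50 CPM in 1 population. Other pathway genes given with values were chosen after these were seen. TMM factors came from edgeR 4.0.16 (R 4.3.3). Other software was numpy 2.4.6, scipy 1.17.1, pandas 2.3.3, anndata 0.12.19 and matplotlib 3.10.9. The members and lists were chosen with earlier results of these data known. A leading gene of some clusters is not reported here.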

Additional observations from a re-analysis of the deposited data

Results flagged for a closer look

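For 3 members the levels in CCl4 over healthy cells went in opposite directions in endothelial-like and mesothelial-like cells, and with 1 library a condition the difference between the classes was not tested. Kdr had a ratio of 1.18 in endothelial-like and 0.0454 in mesothelial-like cells. Nrp2 had 1.18 and 0.420. Vegfc had 0.707 and 12.0, but its endothelial ratio was above 1 within sinusoidal cells (1.78, 1.37 to 2.29), which were 618 of the 645 CCl4 cells, and with each library clustered on its own (2.15, 1.69 to 2.74), so the opposite direction does not hold there. The sinusoidal CCl4 level was 21.4 CPM, beside 25.8 CPM in CCl4 T and NK cell-like cells. The part of free RNA in it was not tested.

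An unnamed cluster of 90 CCl4 cells and 0 healthy cells lay outside the class comparisons. Its cells carried 12 endothelial and 12 mesenchymal markers, and their median depth was 1.76 times that of the library. Kdr stood at 913 CPM (871 to 958) in it and Vegfc at 81.0 CPM (68.6 to 94.95), with a UMI of Vegfc in 82.2% of cells, beside 2428 and 35.5 CPM in CCl4 endothelial-like and 7.23 and 114 CPM in CCl4 mesenchymal-like cells. Whether these are pairs of cells was not tested.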

How the results depend on the processing

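With 1 library a condition nothing was left out in turn, and spread between animals is unknown. No paired analysis was possible because each group holds 1 library. None of the endothelial ratios of the 5 receptors and neuropilins passed 2-fold in any of 15 alternatives, and Nrp1 stayed below 1 in 15 of 15. Flt1 and Nrp2 stayed above 1 in 15, Kdr in 14 and Flt4 in 13, by value alone. The intervals of Flt1 and Flt4 held 1 with the marker gate, those of Flt4 and Nrp2 with each library on its own, those of Flt1, Flt4 and Nrp2 within large-vessel cells and that of Flt1 within the Rspo3- and Wnt9b-high cells. In the order Flt1, Kdr, Flt4, Nrp1 and Nrp2, they were 1.35, 1.36, 1.38, 0.891 and 1.36 with TMM factors, 1.34, 1.36, 1.38, 0.889 and 1.36 without the 50 most abundant genes in the total, 1.12, 1.13, 1.14, 0.716 and 1.09 with equal weight for each cell, 1.02, 1.04, 1.04, 0.686 and 1.07 with cells gated by 3 endothelial markers, 1.11, 1.04, 1.01, 0.650 and 1.05 with each library clustered on its own, and 1.11, 1.59, 0.668, 0.546 and 1.37 within large-vessel cells. Within sinusoidal cells Kdr, Flt4, Nrp1 and Nrp2 were 1.06, 1.09, 0.724 and 1.10. Within the Rspo3- and Wnt9b-high cells, an alternative chosen after seeing the data, Flt1, Kdr, Flt4 and Nrp2 were 1.01, 0.821, 0.719 and 1.28. At a mean of at least 50 CPM 103 genes were higher and 316 lower, against 327 and 943.

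The share of Kdr UMIs in CCl4 endothelial-like cells was 81.3%, and became 76.8% at 10% mitochondrial UMIs, 79.5% at 1000 UMIs, 70.3% without removal of doublets, 79.5% with 30 components, 79.6% with each library on its own, 74.7% at resolution 2 and 79.2% with globin-rich cells kept, which was chosen after seeing the data. Healthy cholangiocyte-like cells held 89.5% of Vegfa at 10% mitochondrial UMIs and 80.3% without removal of doublets. Healthy endothelial-like cells held 85.4% of Vegfc without removal of doublets and 11.3% with each library on its own, where 1757 rather than 3546 healthy cells got that name, 0 healthy cells were named mesothelial-like, so that the mesothelial ratios could not be made, and the endothelial ratio was 2.15 for Vegfc and 0.710 for Vegfa. CCl4 mesenchymal-like cells held 73.8%, 74.9% and 55.1% of Vegfc, and 91.7%, 93.1% and 80.6% of Vegfd, without removal of doublets, with 30 components and with each library on its own. In 6 other alternatives the mesothelial ratio was 0.0429 to 0.0642 for Kdr and 11.6 to 12.5 for Vegfc. Thinned to 2000 UMIs, endothelial-like cells of the healthy and CCl4 library had a UMI of Flt1 in 81.4% and 84.7%, of Flt4 in 66.4% and 71.0%, of Nrp1 in 91.9% and 85.5% and of Nrp2 in 48.3% and 54.3%, and of Kdr in 92.4% of healthy cells.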
